A study of Mus musculus with 2 samples.

Results

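The genes described here are the epithelial alarmins and the receptors of the type 2 cytokine system, 10 genes listed by symbol: Il33, Il1rl1, Tslp, Crlf2, Il7r, Il25, Il17rb, Il4ra, Il13ra1 and Il13ra2. Of these, 9 have a row among the 17943 genes of the expression table, and Il25 was not analysed here. RNA of whole lung was sequenced from C57BL/6 mice, wild type and 6 to 8 weeks old, after adenovirus had been given intranasally for 3 days. The control group received the empty vector (Adv-EV, 1 library) and the other group a vector for the cytokine IL-17B (Adv-IL-17B, 1 library), so both groups carried adenovirus and no group was free of it. The series text speaks of triplicates, whereas the table holds 1 column per group, and the labels do not say whether a column stands for 1 mouse or several. The comparison asks which cytokine-related genes differ in a lung given IL-17B.

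Alarmins are cytokines that barrier epithelium makes available when it is damaged or stimulated. IL-33, TSLP and IL-25 each act on innate lymphoid cells, T helper cells and mast cells or dendritic cells. Of these, the innate lymphoid cells and T helper cells answer with IL-5 and IL-13. IL-4 and IL-13 then signal through receptors that share the IL-4 receptor alpha chain and activate STAT6. IL-17B and IL-25 both bind the receptor chain encoded by Il17rb, which links the vector's cytokine to this set of genes.

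Levels are in FPKM, which is scaled by transcript length and library total, so that levels of different genes can be compared. Each library held about 5570000 (Adv-EV) and 5600000 (Adv-IL-17B) fragments, a rough estimate taken from the spacing of its lowest values, and all intervals are 95% intervals that cover counting error only. Il17b, the vector's gene, was listed at 0 in Adv-EV and at 93.2 FPKM in Adv-IL-17B, at least 114.6-fold above the 3-fragment floor of Adv-EV, which fits the labels. No difference below has a replicate check, and in whole tissue fewer cells of a type and less RNA per cell cannot be told apart.

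The members divided by direction. Il4ra, Il13ra1, Crlf2, Il7r and Il33 stood 1.23-fold to 1.52-fold higher in the Adv-IL-17B library, while Il1rl1 stood 1.82-fold and Tslp 2.005-fold lower. Il17rb also had the lower value there, but on an estimated 2 fragments, and the intervals of Tslp and Il17rb included equal levels. Of the 7 members that averaged 0.5 FPKM or more over both libraries, 0 were higher and 0 lower by 2-fold on log2(FPKM + 0.1), where 3.95% of the 15056 measured genes were higher and 2.68% lower by that rule. By 1.5-fold, 1 was higher, Il4ra (9.42% of measured genes), and 2 were lower, Tslp and Il1rl1 (8.2%). The 7 had a median log2 ratio of 0.39, with 5 above 0 and 2 below, beside -0.01 for all measured genes, whose middle 50% ran from -0.24 to 0.23. Il17rb and Il13ra2 lay under 0.5 FPKM. The counting interval of the ratio lay wholly above equal levels for 5 of the 7 (17.3% of 14713 measured genes with values above 0 in both libraries). It lay wholly below for 1 of the 7, Il1rl1 (16.4%), and included equal levels for Il17rb and Il13ra2. Genes with more fragments have narrower intervals, so these shares also depend on level.

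The promoter stretches of the measured members that stood higher in the Adv-IL-17B library, Crlf2, Il4ra, Il13ra1, Il7r and Il33, are shown. Of the 8 members searched, Il33 and Il7r were those with a STAT-type motif, and Tslp and Il25 were not searched. The motif was of interest because IL-4, IL-13, TSLP and IL-7 all signal through STAT factors. The motifs searched were TTCNNNNGAA, the spacing STAT6 prefers, and TTCNNNGAA, the spacing of other STAT factors such as STAT5. Both read the same on either strand, no match of one overlapped a match of the other in these windows, and matches are in capitals. Sequences are from RefSeq, build GRCm38.p6. Windows were the 250 bases before the RefSeq start. The stretches shown were cut where a GENCODE transcript of the gene begins earlier, except for Il7r. Its window lies inside a GENCODE transcript of the gene, so the 30 bases shown around its motif are not upstream of that transcript's start. The stretches lie at chr19:29924863-29925112 (plus strand, Il33), chr15:9529999-9530028 (minus strand, Il7r, 30 bases around the motif), chr5:109558994-109559243 (minus strand, Crlf2), chr7:125552021-125552119 (plus strand, Il4ra) and chrX:36111858-36112107 (plus strand, Il13ra1), and read 5′ to 3′ on the gene's strand.
Il33: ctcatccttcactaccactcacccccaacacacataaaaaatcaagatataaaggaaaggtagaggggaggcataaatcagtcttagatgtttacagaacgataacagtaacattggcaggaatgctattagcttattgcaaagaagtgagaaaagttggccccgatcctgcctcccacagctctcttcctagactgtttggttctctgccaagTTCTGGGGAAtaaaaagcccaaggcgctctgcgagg
Il7r: gttcaggagcTTCAGGGAAtaccaagatgc
Crlf2: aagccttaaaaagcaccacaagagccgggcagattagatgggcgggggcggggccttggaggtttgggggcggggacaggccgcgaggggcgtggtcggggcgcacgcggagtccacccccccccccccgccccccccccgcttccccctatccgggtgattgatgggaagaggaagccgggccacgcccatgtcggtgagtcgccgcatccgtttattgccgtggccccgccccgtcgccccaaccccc
Il4ra: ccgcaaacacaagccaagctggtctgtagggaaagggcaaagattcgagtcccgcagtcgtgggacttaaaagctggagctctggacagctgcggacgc
Il13ra1: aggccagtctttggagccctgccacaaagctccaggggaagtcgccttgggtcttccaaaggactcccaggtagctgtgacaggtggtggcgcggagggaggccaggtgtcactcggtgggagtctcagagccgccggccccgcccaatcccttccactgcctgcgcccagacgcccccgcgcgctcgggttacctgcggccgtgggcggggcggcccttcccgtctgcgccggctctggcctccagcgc

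Across the 10 windows of 8 members, 1 held TTCNNNNGAA, 36 bases before the upstream start of Il33. In 1 other, TTCNNNGAA lay 142 bases before the RefSeq start of Il7r and inside a GENCODE transcript of that gene. Of 32851 mouse windows of the same length, 5.85% held the first motif and 7.02% the second. The windows of Crlf2, Il13ra1 and Il4ra held neither. They were rich in G and C, at 71.6%, 70.8% and 59.6%, beside a median of 52.4% over all windows. The window of Il4ra runs past the start of a GENCODE transcript of the gene, so its share also covers bases that are not shown. The window of Il17rb was also rich in G and C, at 72%, but the lower value of that gene rests on an estimated 7 and 2 fragments. The windows of Il1rl1 (37.6% and 46.4%) and of Il13ra2 (36%), a gene under the floor in both libraries, were below that median. So were those of members with a higher level, Il33 (45.2% and 39.6%) and Il7r (44%).

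Among the ligands, Il33 was abundant and Tslp was not. Il33 encodes a nuclear cytokine of the IL-1 family that alveolar epithelium of the mouse stores and releases on injury. It lies at chr19:29925114-29960718 of mm10 on the plus strand and stood at 46.1 FPKM in Adv-EV (about 645 fragments) and 56.6 FPKM in Adv-IL-17B (about 797). It was 1.23-fold higher (interval 1.11 to 1.36), and 20.7% of measured genes had a log2 ratio as high or higher. In Adv-EV its level was within the top 11.7% of measured genes.

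Tslp encodes thymic stromal lymphopoietin, a short-chain cytokine related to IL-7. It stood at 4.45 FPKM in Adv-EV and 2.22 FPKM in Adv-IL-17B, from an estimated 27 and 14 fragments. This 2.005-fold lower level had a counting interval from 0.983-fold to 4.004-fold lower, which just included equal levels, and 2.88% of measured genes had a log2 ratio as low or lower than its -0.97. The values of the 2 alarmin genes lay on opposite sides of equality. The interval of Il33 lay above it, but that of Tslp included it, so the direction of Tslp is not settled.

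The values of the receptor chains did not take the direction of their ligands' values. Il1rl1 encodes ST2, the chain that binds IL-33, and lies at chr1:40429570-40465415 on the plus strand. It stood at 1.67 FPKM in Adv-EV and 0.92 FPKM in Adv-IL-17B, from an estimated 49 and 27 fragments, or 1.82-fold lower (interval 1.12-fold to 3.04-fold lower). Of measured genes, 4.42% had a log2 ratio as low or lower. Il1rl1 has a long transcript for the membrane receptor and a short one for the soluble form, with 3 RefSeq accessions behind 1 value. The forms could not be separated, and with the shortest transcript (1216 bp in place of 5302 bp) the estimate came to 11 and 6 fragments and the interval, 0.625-fold to 6.08-fold lower, included equal levels.

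Il1rap, the accessory chain that ST2 needs to signal, stood at 3.03 and 4.03 FPKM. It was therefore 1.81 times the level of Il1rl1 in Adv-EV and 4.38 times in Adv-IL-17B. The ligand exceeded its receptor by far more, with Il33 at 27.6 times the FPKM of Il1rl1 in Adv-EV and 61.5 times in Adv-IL-17B.

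Il1rl1 lies in a cluster of IL-1 family receptor genes on chromosome 1, and its neighbours did not share its direction. Il18r1, the next gene and a chain of the IL-18 receptor, was at 29.6 and 40.95 FPKM, or 1.39-fold higher with an interval of 1.25 to 1.53. Il18rap, the partner chain, was at 2.15 and 4.50 FPKM, or 2.09-fold higher with an interval of 1.52 to 2.91. On the other side Il1rl2, the IL-36 receptor, stood at 3.51 and 4.88 FPKM and Il1r1, the IL-1 receptor, at 7.83 and 8.58 FPKM, and both intervals included equal levels.

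Crlf2 encodes the TSLP-binding chain and lies at chr5:109554709-109558993 on the minus strand. It stood at 42.2 FPKM in Adv-EV and 59.96 FPKM in Adv-IL-17B, from an estimated 323 and 462 fragments, and was 1.42-fold higher (interval 1.23 to 1.64). Of measured genes, 11.6% had a log2 ratio as high or higher. Its partner Il7r, at chr15:9505788-9530176 on the minus strand, encodes the IL-7 receptor alpha chain, which serves both TSLP and IL-7 and marks lymphocytes. Il7r stood at 6.36 and 8.36 FPKM, about 124 and 164 fragments, or 1.31-fold higher (interval 1.04 to 1.67).

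The chains of the TSLP receptor thus kept a similar proportion, with Crlf2 at 6.63 times the FPKM of Il7r in Adv-EV and 7.17 times in Adv-IL-17B. The receptor and the ligand did not, since Crlf2 was at 9.48 times the level of Tslp in Adv-EV and 27.0 times in Adv-IL-17B. The T cell markers, whose cells carry Il7r, had 10 of 10 genes measured, 0 past 2-fold in either direction and a summed level of 74.5 and 82.7 FPKM. Their part in the level of Il7r was not tested.

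Il17rb, the chain bound by both IL-25 and IL-17B, was near the limit of detection. It lies at chr14:29996135-30008896 on the minus strand and stood at 0.61 FPKM in Adv-EV and 0.17 FPKM in Adv-IL-17B, from an estimated 7 and 2 fragments. The second value is under its 3-fragment floor of 0.264 FPKM, and the ratio of 3.59-fold lower had an interval from 0.670-fold to 34.7-fold lower that included equal levels. The shared chain gene Il17ra was much more abundant, at 14.2 and 20.98 FPKM, or 23.3 and 123 times the level of Il17rb in the same libraries, and the second of these ratios rests on 2 fragments of Il17rb.

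**Figure D1:**
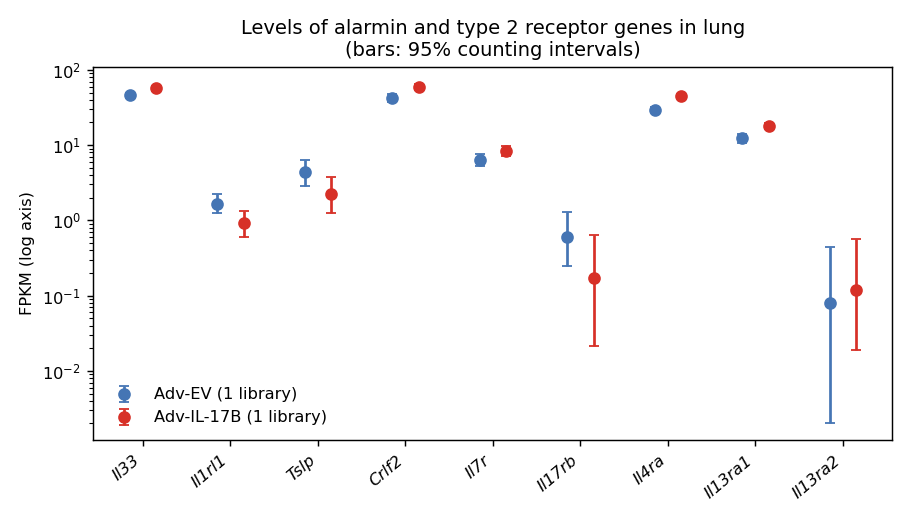
FPKM (log axis) of the 9 members in the Adv-EV library (blue) and the Adv-IL-17B library (red), with 95% counting intervals. Il33, Crlf2 and Il4ra lie highest, from 29.6 to 59.96 FPKM, and Il17rb and Il13ra2 lie at 0.61 FPKM or less with wide intervals.

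The IL-4 and IL-13 receptor chains stood higher in the Adv-IL-17B library. Il4ra, the alpha chain common to both IL-4 receptors, lies at chr7:125552120-125579474 on the plus strand. It stood at 29.6 FPKM in Adv-EV and 44.99 FPKM in Adv-IL-17B, from an estimated 861 and 1317 fragments, the most of any member. It was 1.52-fold higher (interval 1.39 to 1.66), and 9.03% of measured genes had a log2 ratio as high or higher.

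Il13ra1 lies at chrX:36112110-36171259 on the plus strand and encodes the IL-13-binding chain that pairs with the IL-4 receptor alpha chain. It stood at 12.3 and 18.05 FPKM, about 252 and 372 fragments, or 1.47-fold higher (interval 1.25 to 1.73). The chains of this type II receptor kept a similar proportion, with Il4ra at 2.41 times the level of Il13ra1 in Adv-EV and 2.49 times in Adv-IL-17B. Il2rg, the common gamma chain that pairs with Il4ra in the type I receptor of blood cells, was at 52.1 and 74.5 FPKM, or 1.43-fold higher with an interval of 1.27 to 1.61.

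Il13ra2 encodes the decoy receptor that binds IL-13 and takes it out of signalling. It lies on the same chromosome as Il13ra1, at chrX:147383476-147429192 on the minus strand. Its 0.08 and 0.12 FPKM, about 1 and 2 fragments, were both under the 3-fragment floors of 0.239 and 0.238 FPKM, so no ratio is given. Of the neighbours of Il4ra, Il21r, the receptor of the related cytokine IL-21, was at 12.1 and 19.3 FPKM, or 1.59-fold higher with an interval of 1.31 to 1.95, whereas Nsmce1, on the other side, stood at 37.65 and 40.4 FPKM with an interval that included equal levels.

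**Figure D2:**
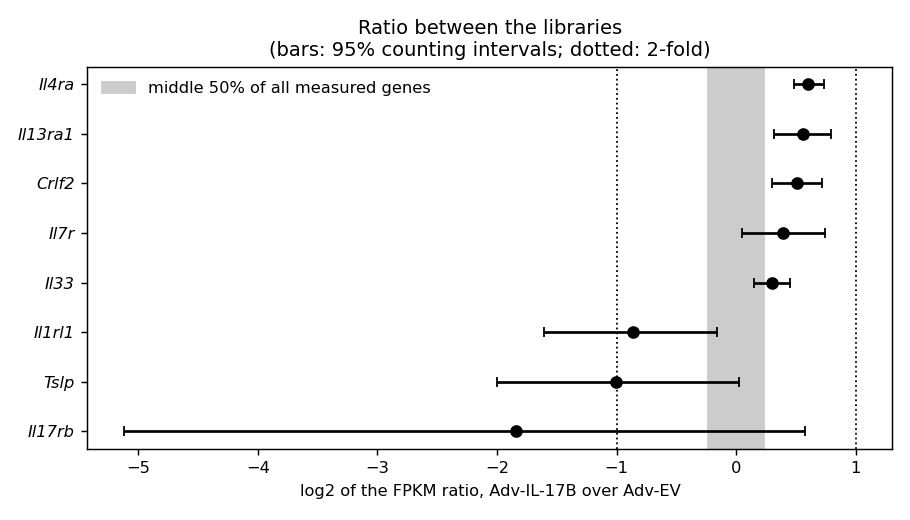
FPKM ratio of Adv-IL-17B over Adv-EV (log2 axis) for 8 members, with 95% counting intervals; the band spans the middle 50% of all measured genes and dotted lines mark 2-fold. Il33, Il7r, Crlf2, Il13ra1 and Il4ra lie above equality with their whole interval, Il1rl1 below it, and the intervals of Tslp and Il17rb cross it.

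In order of level, Il33 and Crlf2 led both libraries and their intervals overlapped in each, with Il33 first in Adv-EV and Crlf2 first in Adv-IL-17B. Il4ra and Il13ra1 followed, each apart from its neighbours beyond counting error. Il7r and Tslp came next and overlapped in Adv-EV, but not in Adv-IL-17B, where Il7r was at 8.36 FPKM and Tslp at 2.22 FPKM. Tslp was apart from Il1rl1 in Adv-EV and overlapped it in Adv-IL-17B, and the last 3, Il1rl1, Il17rb and Il13ra2, overlapped from one to the next in both libraries.

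Of the other genes of these pathways, 48 of 56 were measured, of which 8 were past the 2-fold rule on the higher side (16.7%, beside 3.95% of all measured genes) and 0 lower (beside 2.68%). The 8 include Il17b, which the vector delivered, and without it 7 of 47 were higher (14.9%), 6 of them from the list of genes that IL-4 and IL-13 induce. All lists were chosen with earlier results of these data known, so these shares are a description and not a test. The median log2 ratio of the 48 was 0.37. In the 8 genes of IL-33 signalling, 0 were past 2-fold and the median was 0.24. Myd88, the adaptor of IL-1 family and Toll-like receptors, was at 32.2 and 58.5 FPKM, or 1.82-fold higher with an interval of 1.59 to 2.08, and had the highest level, while Il1rap had the lowest. The kinase genes Irak2 (17.8 and 27.7 FPKM) and Irak4 (7.04 and 10.9 FPKM) were 1.56-fold and 1.55-fold higher, and Irak1 stood at 19.0 and 19.9 FPKM. Sigirr, an inhibitory receptor of this family, stood at 15.9 and 14.5 FPKM.

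Of the 8 genes of TSLP and IL-7 signalling 0 were past 2-fold either, with a median of 0.34. Il2rg had the highest level and Il7, the other ligand of Il7r, the lowest, at 0.62 and 0.69 FPKM. Jak2, a kinase used by the TSLP receptor, was at 14.5 and 20.95 FPKM, or 1.44-fold higher with an interval of 1.27 to 1.64, while its partner Jak1 stood at 42.8 and 41.4 FPKM with an interval that included equal levels. Cish, a feedback inhibitor induced through STAT5, was at 13.9 and 18.2 FPKM, or 1.31-fold higher with an interval of 1.09 to 1.57. Of the 5 genes of IL-25 signalling 1, the vector's Il17b, was past the rule on the higher side (3.95% of all measured genes were). The list's median was 0.04. By the mean of both libraries, Il17ra had its highest level after Il17b. Traf6, an adaptor shared with IL-33 signalling, had the lowest mean, at 5.76 and 5.91 FPKM.

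The 9 genes of IL-4 and IL-13 signalling had a median of 0.11 and 1 past the rule on the higher side (3.95% of all measured genes were). This was Socs1, an inhibitor of JAK kinases that many cytokines induce, at 11.9 and 32.5 FPKM, which is 2.74-fold higher with an interval of 2.32 to 3.25. Ptpn6 of the same list was at 40.6 and 72.9 FPKM, or 1.79-fold higher with an interval of 1.61 to 2.01. The list had 5 log2 ratios above 0 and 4 below. Stat6, the transcription factor of both receptors, stood at 36.8 and 39.8 FPKM with an interval of the ratio from 0.979 to 1.19. The insulin receptor substrate genes Irs1 (2.11 and 1.41 FPKM) and Irs2 (5.86 and 3.98 FPKM), docking proteins of the IL-4 receptor, stood lower, with ratios of 0.668 (interval 0.489 to 0.910) and 0.679 (interval 0.544 to 0.846). Irs1 was the list's gene of lowest level and Il2rg that of the highest.

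The type 2 interleukin genes with a row, Il5 and Il13, were almost without fragments. Il3, Il4, Il9 and Il31 have no row, which does not give their level. Of 7 listed genes, 3 have a row and 1 was measured, the epidermal growth factor family gene Areg at 8.99 and 11.5 FPKM (interval of the ratio 0.899 to 1.83). Il5, the eosinophil growth factor gene, had an estimated 1 and 2 fragments, at 0.12 and 0.24 FPKM. Il13 was listed at 0 in Adv-EV and at 0.15 FPKM, about 1 fragment, in Adv-IL-17B. No difference in Il5 or Il13 was detectable at this depth.

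Among genes that IL-4 and IL-13 induce in macrophages and epithelium, 21 of 23 were measured, 6 were past the 2-fold rule on the higher side (28.6%, beside 3.95% of all measured genes) and 0 on the lower (beside 2.68%), and the median log2 ratio was 0.56. This list too was chosen with earlier results of these data known, so its share is not a test. The 6 were Arg1 (5.35 and 27.0 FPKM), Retnla, Slc26a4, Itln1, Clca1 and Pdcd1lg2. The intervals of Itln1 (0.63 and 2.06 FPKM, ratio 0.998 to 13.6), Clca1 (0.49 and 1.09 FPKM, ratio 0.994 to 5.17) and Pdcd1lg2 included equal levels. Slc26a4, the anion exchanger pendrin of airway epithelium, was at 8.40 and 19.5 FPKM, or 2.33-fold higher with an interval of 1.91 to 2.86. Pdcd1lg2, which encodes the checkpoint ligand PD-L2, was at 0.47 and 1.41 FPKM, where an estimated 4 and 13 fragments gave an interval from 0.998 to 13.6. Retnla had the highest level of the list, at 1035 and 2157 FPKM, and Fcgbp, a mucus-associated protein gene, the lowest measured one, at 0.43 and 0.65 FPKM.

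Other genes of this list stood lower, and of the 21 measured 15 had a log2 ratio above 0 and 6 below. Postn, the matrix protein periostin, was at 94.3 and 65.9 FPKM (ratio 0.699, interval 0.649 to 0.755), and the chitinase-like gene Chil3 at 208 and 154 FPKM (ratio 0.739, interval 0.687 to 0.794). Mrc1, the mannose receptor of macrophages, was at 8.72 and 6.43 FPKM (ratio 0.737, interval 0.608 to 0.891). The eotaxin gene Ccl11 (1.70 and 2.55 FPKM) and the mucin gene Muc5ac (1.38 and 1.62 FPKM) had the higher value in Adv-IL-17B, with intervals that included equal levels.

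**Figure D3:**
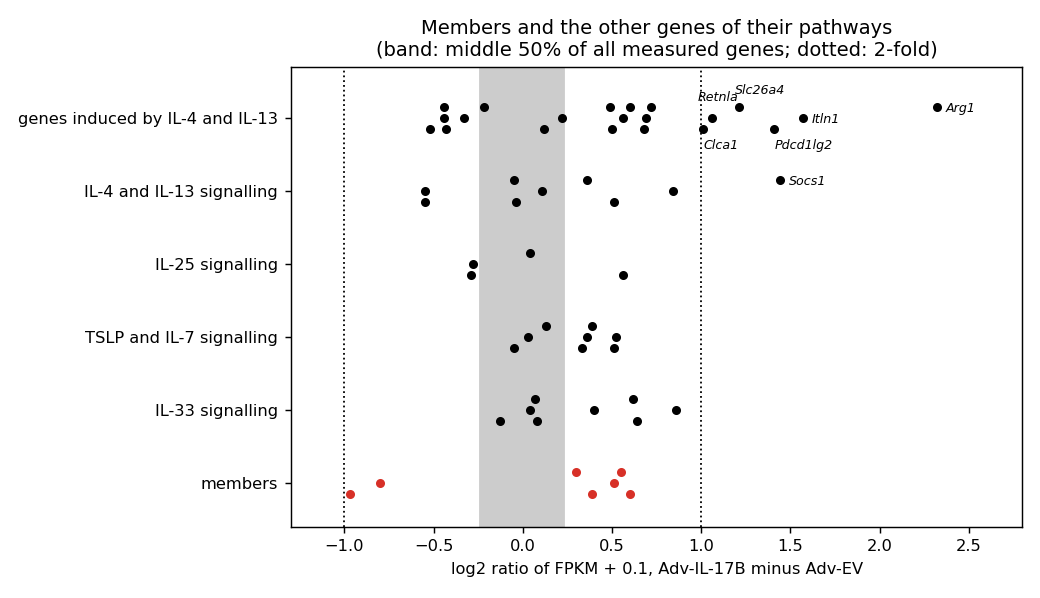
Difference of log2(FPKM + 0.1), Adv-IL-17B minus Adv-EV, for each measured gene (points) of the members and of 5 pathway lists; the band spans the middle 50% of all measured genes, dotted lines mark 2-fold, and Il17b, the vector's gene, is left off. The members lie between -0.97 and 0.60, and the genes beyond 2-fold are Socs1 and 6 genes induced by IL-4 and IL-13, with Arg1 farthest at 2.32.

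Markers of cells that carry these receptors were set beside the members. Monocyte and macrophage markers, from cells that express Il4ra, Il13ra1 and Il2rg, had 10 of 10 ratios above equality, 2 of them past 2-fold (3.95% of all measured genes were), and summed to 973 FPKM in Adv-EV and 1644 FPKM in Adv-IL-17B, a ratio of 1.69. The 10 neutrophil markers also had ratios above equality, 4 past 2-fold, though the interval of Hdc (0.964 to 1.22) included equal levels, and summed to 396 and 681 FPKM, a ratio of 1.72. Neither list had a marker at 0. These sums differ in the direction of Il4ra, Il13ra1, Crlf2 and Il2rg, and their part in those differences was not tested.

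Markers of the cells best known for ST2 were sparse. Of 10 markers of type 2 innate lymphoid cells 8 were measured, with a median log2 ratio of -0.61. By 2-fold, 1 was higher and 1 lower, beside 3.95% and 2.68% of all measured genes. Gata3, their lineage factor, stood at 3.34 and 1.86 FPKM (ratio 0.557, interval 0.352 to 0.865), Rora at 4.82 and 3.25 FPKM, and Hlf, which other lung cells also express, at 6.31 and 2.22 FPKM, while Il13 was listed at 0 in Adv-EV. Icos (2.46 and 3.10 FPKM) and Areg (8.99 and 11.5 FPKM) of the same list had ratios above equality, with intervals that included it. The list summed to 34.3 and 51.1 FPKM, but without Arg1, which macrophages also express, to 28.9 and 24.0 FPKM. The part of these cells in the level of Il1rl1 was not tested.

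Of 9 mast cell markers 7 have a row and 3 were measured, 0 past 2-fold, with sums of 83.3 and 77.3 FPKM that Kit and Hdc, genes of other lung cells too, nearly make up. The mast cell protease genes Cma1 (1.01 and 1.34 FPKM, about 6 and 8 fragments) and Cpa3 (0.50 and 0.12 FPKM, about 4 and 1, under the filter) lay on opposite sides of equality. Mcpt4 was listed at 0 in Adv-IL-17B and Fcer1a at 0 in Adv-EV. Basophil markers summed to 43.8 and 28.7 FPKM, almost all of it Gata2, and the eosinophil markers to 4.54 and 2.37 FPKM. Each list had 3 measured genes, 0 higher and 1 lower by 2-fold, beside 3.95% and 2.68% of all measured genes. The lower genes, Prss34 and Ear6, each had an estimated 7 fragments in Adv-EV and 1 fragment in Adv-IL-17B.

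Epithelial markers, from the cells that are sources of IL-33 and TSLP, stood lower. The 9 alveolar type 2 cell markers had a median log2 ratio of -0.25, 8 of them below 0 and 0 past 2-fold, and summed to 26303 and 16796 FPKM, a ratio of 0.639. Most of that sum was the surfactant gene Sftpc (20844 and 11922 FPKM), and without it the sums were 5460 and 4873 FPKM, a ratio of 0.893. The 5 club cell markers were all below 0, with sums of 43930 and 30130 FPKM, and 1 was lower by 2-fold (2.68% of all measured genes were). Il33 thus stood 1.23-fold higher in the library in which the alveolar type 2 marker sum was lower, whereas Tslp had its lower value there. The interval of Tslp included equal levels. Of the tuft cell markers, whose cells are the known source of IL-25, 4 of 7 have a row and 2 were measured, and Pou2f3, their lineage factor, was listed at 0 in Adv-EV and rested on about 2 fragments in Adv-IL-17B. The part of these cells in the alarmin levels was not tested.

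**Figure D4:**
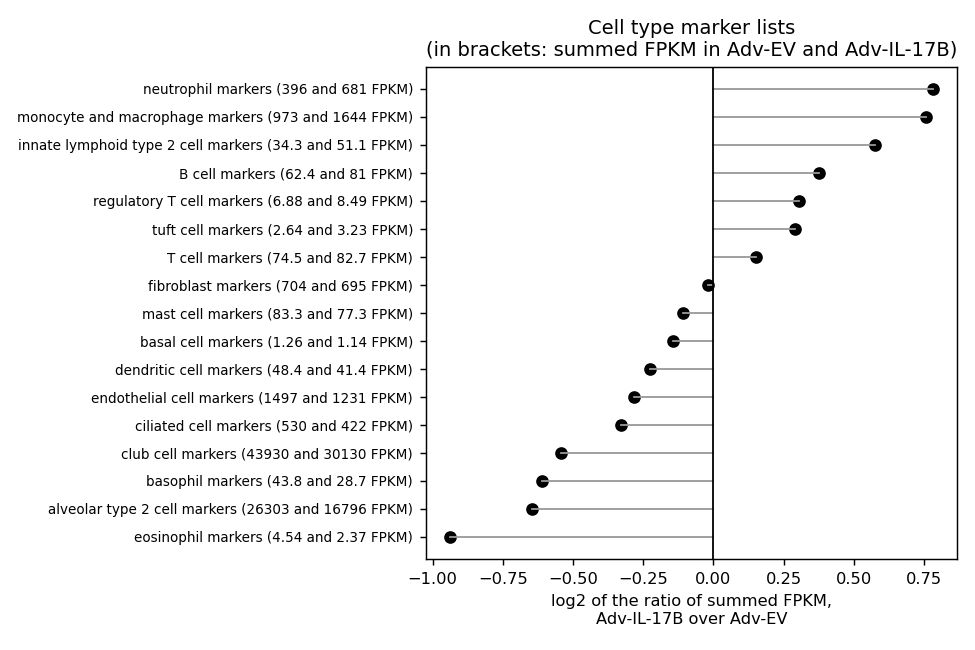
Log2 ratio of the summed FPKM of each of 17 cell type marker lists, Adv-IL-17B over Adv-EV, with the sums in brackets. Neutrophil and monocyte and macrophage markers lie highest, at ratios of 1.72 and 1.69, and the eosinophil, alveolar type 2, basophil and club cell lists lie lowest, from 0.522 to 0.686, where the alveolar type 2 sum is mostly Sftpc and its ratio without that gene is 0.893.

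Fibroblast markers, from another source of Il33 and Tslp, summed to 704 and 695 FPKM, with 1 of 10 (Npnt) past 2-fold lower (2.68% of all measured genes were). Endothelial markers summed to 1497 and 1231 FPKM, with 9 of 9 below equality and 0 past 2-fold. Dendritic cell markers, whose cells carry the TSLP receptor, had 6 of 8 below equality, 0 past 2-fold and sums of 48.4 and 41.4 FPKM. B cell markers summed to 62.4 and 81.0 FPKM with 0 of 7 past 2-fold, and ciliated cell markers to 530 and 422 FPKM with 0 of 5. Of the 4 regulatory T cell markers Il2ra, the IL-2 receptor alpha chain, was past 2-fold higher (3.95% of all measured genes were), at 1.34 and 3.14 FPKM. Foxp3, their defining factor, stood at 3.43 and 2.97 FPKM. Of the basal cell markers 1 of 5 was measured, and their sums were 1.26 and 1.14 FPKM.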

How the data were processed

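The authors deposited 1 table of FPKM values (fragments divided by transcript length and sequencing depth), 1 column for each group, per the file headers. The values carry 2 decimals. The submitters' processing notes name Bowtie2, HISAT and the mouse build mm10. The step from alignments to FPKM, the annotation, filters, strand handling and any pooling of mice are not stated in the labels. The 10 genes and all gene lists were chosen with earlier results of these data known.

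Ratios are log2(FPKM + 0.1) in Adv-IL-17B minus Adv-EV, a scale that understates the differences of low genes. A gene counted as measured when its mean over both libraries reached 0.5 FPKM, and the rule of size was 2-fold, a log2 ratio of 1 or more, or of -1 or less. With 1 sample per group there was no test and no p-value. The named genes were all 10 members, and of each pathway list every gene past the rule and the measured genes of highest and lowest level. Other genes named in the text were chosen after their values were seen. No genes of a like pattern were sought, because 2 libraries give each gene a single ratio.

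Fragments were estimated from the steps in low FPKM values, taking transcript lengths from GENCODE M21 (GRCm38, the assembly of mm10) for 17632 genes (98.3%), less 30 bp, the shortening that fitted the steps best. Steps from 0.01 to 0.4 FPKM per fragment at 1 kb were searched. With the steps found, 80.5% (Adv-EV) and 79.7% (Adv-IL-17B) of low values came within 0.2 of whole fragments. For a gene with several transcripts the longest was used. The depth found by the steps was 5570000 and 5600000 fragments, and the estimates summed over genes were larger, at 5980000 and 6030000, so the numbers are approximate. The search was tested on data simulated with the same model of lengths and steps. Such a test cannot show that the deposited values follow that model. Ratio intervals are exact Clopper-Pearson and level intervals exact Poisson, both at 95%, and both cover counting error only. Python 3.11.15, scipy 1.17.1 and pandas 2.3.3 were used. The alternatives were other pseudocounts, scalings, filters, size rules and transcript lengths.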

Additional observations from a re-analysis of the deposited data

How the results depend on the processing

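All 9 members kept the sign of their log2 ratio under each of the 5 other pseudocounts and scalings. A pseudocount added to both libraries cannot change a sign, so that part of the outcome was fixed. All 45 values stayed inside the counting interval of the ratio, but the intervals of Il17rb and Il13ra2 were too wide for this to be a check. The upper-quartile scaling moved the median of all genes from -0.01 to -0.06, a small move beside the log2 ratio of 0.30 of Il33. The kept signs therefore say little about the members' directions. The count of members past the size rule was less stable because Tslp lay at -0.97. It became 1 lower with a pseudocount of 0.01 and with upper-quartile scaling (Tslp in both, at -1.02 with that scaling), 1 lower with no filter (Il17rb), and 1 higher (Il4ra) and 2 lower (Tslp and Il1rl1) with a 1.5-fold rule, which 9.42% of all measured genes passed upward and 8.2% downward. The members' median ranged from 0.30 to 0.39. Of the other pathway genes 5 in place of 8 were higher with a pseudocount of 1, and 16 with the 1.5-fold rule. Among genes induced by IL-4 and IL-13 the pseudocount of 1 left 3 of 6. Over all genes it left 351 higher and 176 lower in place of 594 and 404, and without a filter 1146 were higher and 1009 lower. With the shortest transcript 5 members in place of 6 had an interval that left out equal levels, Il1rl1 being lost through fewer estimated fragments. The ratio of the summed markers of type 2 innate lymphoid cells turned from 1.49 to 0.830 without Arg1, and that of alveolar type 2 cells moved from 0.639 to 0.893 without Sftpc. Without Il17b 7 pathway genes were higher. These 3 alternatives were chosen after seeing the data. No paired analysis was possible because each group has 1 sample. Depth limits Il17rb, Il13ra2, Il5 and Il13, each at 7 fragments or fewer.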
